A study of Mus musculus with 8 samples.

Results

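Mitochondrial ribosomal proteins (MRPs) are the protein subunits of the ribosome inside mitochondria, and their transcripts are followed here in mouse embryonic fibroblasts (MEFs) with and without Btg1. The members are all rows of the deposited table named MRPL or MRPS followed by a digit, which gave 72 of 18132 rows, 44 named for the large subunit and 28 for the small subunit. MEFs, connective tissue cells grown from C57BL/6J embryos at day 13.5, came from wild type (WT) or Btg1-/- mice and were left untreated in medium with Glutamax or starved of glutamine for 16 hours, a nutrient stress known to activate the transcription factor ATF4. Expression was read in 8 cultures, 2 biological duplicates in each of the 4 groups, with the Illumina MouseRef-8 v2 bead array. Per the methods, glutamine-free medium also carried dialyzed in place of heat-inactivated serum, so that the effects of glutamine and serum cannot be told apart.

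The mitochondrial ribosome makes the few proteins encoded by mitochondrial DNA, which are core subunits of the oxidative phosphorylation complexes. All of its own protein subunits are encoded in the nucleus, made in the cytosol and imported, where they join rRNAs transcribed from mitochondrial DNA into a large subunit, which holds the peptidyl transferase centre, and a small subunit, which decodes the mRNA. Some subunits descend from proteins of the bacterial ribosome and others were added in mitochondria. MRPS30 and MRPS18A carry small-subunit names, but structures of the mammalian mitochondrial ribosome place them in the large subunit as mL65 and mL66.

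Promoter sequences are shown for members that moved the same way in both genotypes, as the stretch in front of genes that changed together. Of the 72 members, 63 had a window of 250 bases before to 50 bases after the start site in the RefSeq promoter table (GRCm38.p6), 69 windows in all. The stretches below are the 250 bases before the start site of MRPL9, MRPS22 and MRPL24, which rose, and of MRPL17, which fell, written 5′ to 3′ on the strand of the gene. They lie at chr3:94443086-94443335 (plus strand), chr9:98601680-98601929 (minus strand), chr3:87919294-87919543 (plus strand) and chr7:105811088-105811337 (minus strand). Capitals mark a match to a searched motif.
Mrpl9: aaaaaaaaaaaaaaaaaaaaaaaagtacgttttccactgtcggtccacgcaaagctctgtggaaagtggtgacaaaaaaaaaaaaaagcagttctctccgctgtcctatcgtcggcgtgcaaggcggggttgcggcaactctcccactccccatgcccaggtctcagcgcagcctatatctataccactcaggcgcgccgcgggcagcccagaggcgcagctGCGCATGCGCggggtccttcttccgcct
Mrps22: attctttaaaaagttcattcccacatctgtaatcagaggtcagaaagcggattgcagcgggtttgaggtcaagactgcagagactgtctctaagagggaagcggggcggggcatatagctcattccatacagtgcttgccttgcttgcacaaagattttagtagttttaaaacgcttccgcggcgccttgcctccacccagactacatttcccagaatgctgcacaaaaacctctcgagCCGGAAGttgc
Mrpl24: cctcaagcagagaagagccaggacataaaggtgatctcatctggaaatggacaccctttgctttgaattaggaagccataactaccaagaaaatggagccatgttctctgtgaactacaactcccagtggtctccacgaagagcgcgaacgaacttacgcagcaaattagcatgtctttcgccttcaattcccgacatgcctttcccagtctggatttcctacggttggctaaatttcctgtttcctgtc
Mrpl17: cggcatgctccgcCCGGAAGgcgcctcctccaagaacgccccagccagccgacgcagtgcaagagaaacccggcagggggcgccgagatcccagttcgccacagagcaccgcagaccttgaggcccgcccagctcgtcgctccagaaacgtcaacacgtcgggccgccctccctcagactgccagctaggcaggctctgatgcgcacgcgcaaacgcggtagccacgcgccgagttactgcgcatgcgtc

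The motif in the Mrpl9 stretch is the palindrome bound by NRF1, a factor known for nuclear genes of mitochondrial proteins, and that in the Mrps22 and Mrpl17 stretches is CCGGAAG, bound by the ETS family, which includes GABP. No searched motif stood in the Mrpl24 stretch. On both strands of the full windows, CCGGAAG was found for 24 of the 63 members (38.1%), against 1374 of 8044 genes with a tested row (17.1%). AAGATGG, bound by YY1, was found for 12 of 63 members (19.0%) against 8.13% of the 8044 genes, and the NRF1 palindrome for 3 members (4.76%) against 1.86%. CACGTG, the E-box, was found for 5 members (7.94%) against 11.2%, and TGATGCAA, a composite site of C/EBP and ATF factors, for 0 of 63 members against 0.796%. CCGGAAG stood in the windows of 13 of 38 large-subunit and 11 of 25 small-subunit members. It also stood in 8 of 21 members that rose in either genotype, 3 of 4 that fell and 12 of 35 that passed the test in neither. In the same order the E-box stood in 4 (19.0%), 0 and 1 (2.86%), AAGATGG in 3, 0 and 8, and the NRF1 palindrome in 1, 0 and 1. These splits were not tested. No 2 motifs overlapped in a member's window. A match is a description of the letters and not a binding site.

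Values are deposited log2 expression values, for which the methods give 3 as the background level. A row was tested when its mean reached 3 in at least 1 group, which 68 members did, 40 of the large and all 28 of the small subunit, among 12691 rows tested. MRPL19, MRPL21, MRPL32 and MRPL45 had means under 3 in every group and give no level, among them MRPL32, whose maturation by the m-AAA protease is a known control point of ribosome assembly. MRPS14, the dimmest small-subunit member tested, measured 3.12 and 3.10 in untreated and 3.12 and 3.05 in starved WT cells, 2.32 and 2.44 in untreated and 3.64 and 2.37 in starved Btg1-/- cells. Only its untreated Btg1-/- mean lay under 3, and its differences rest on values at background. The per-array median of the 68 members lay between 9.88 and 10.50, against 5.98 to 6.02 for all rows tested.

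The Btg1 row measured 11.17 and 11.23 in untreated WT and 9.36 and 9.16 in untreated Btg1-/- cells (log2 difference -1.94, limma adjusted p = 5.52e-05). After starvation it measured 12.40 and 12.40 in WT and 10.40 and 10.46 in Btg1-/- cells, a rise of 1.2 and 1.16 on the log2 scale. The row was thus lower on every Btg1-/- array but above the background level, and the place of its probe relative to the deleted part was not used here. Replicates correlated at 0.984 to 0.988 over all rows. Fibroblast markers were present on every array, with per-array medians of 9.08 to 10.95 over 9 markers. The median of 10 macrophage markers was 5.01 to 5.70 on WT arrays, 6.36 and 6.09 on the arrays of Btg1-/- replicate 2, and 8.35 and 7.93 on those of Btg1-/- replicate 1. EIF2S3Y, a Y-linked gene, measured 9.81 and 9.49 in WT replicate 2 and at most 3.25 elsewhere.

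Glutamine starvation of WT cells was compared first. Of the 68 members tested, 22 rose and 6 fell at a limma adjusted p under 0.05. Among all tested rows 13.1% rose and 11.6% fell (24.7% in all), but most of these rows are dimmer than the members. Raising the level for testing from 3 to 5 left brighter rows, of which 40.9% were called, beside 28 of 67 members. The share of members called was thus near that of all rows at this level. Of these 28 members 22 rose and 6 fell, and all rows were not split by direction there. The large-subunit protein MRPL24 had the largest rise, 1.89-fold, and MRPL18, a protein of the central protuberance where the large subunit meets the small one, had the largest fall, 1.73-fold. Of the 68 members 0 reached the 3-fold change by which the methods select genes, which 4.31% of all rows did. The median log2 difference of the 68 members was 0.16, against 0.03 for all rows, and 47 of 68 lay above 0. Both starved arrays lay above both untreated arrays for 40 members and below them for 15, where 33.4% of all rows were higher and 29.6% lower by this measure.

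Among large-subunit proteins with bacterial relatives, MRPL24, whose E. coli relative is among the first proteins to join the assembling large subunit, measured 9.70 and 9.59 in untreated and 10.67 and 10.46 in starved WT cells. It measured 9.71 and 9.64 in untreated and 10.06 and 10.11 in starved Btg1-/- cells. All 4 starved arrays lay above all 4 untreated arrays, with the WT starved arrays highest. The log2 difference was 0.92 (SE 0.11) in WT and 0.41 (SE 0.11) in Btg1-/- cells, with limma adjusted p = 0.000292 and 0.0298.

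MRPL9, the relative of bacterial ribosomal protein bL9, measured 10.24 and 10.22 in untreated and 11.21 and 10.88 in starved WT cells, and 9.92 and 9.98 in untreated and 10.59 and 10.55 in starved Btg1-/- cells. Starved arrays again lay above untreated arrays without overlap, and in each state the Btg1-/- arrays lay below the WT arrays. Its log2 difference was 0.81 (SE 0.12; limma adjusted p = 0.000821) in WT and 0.62 (adjusted p = 0.00634) in Btg1-/- cells. MRPL2, whose bacterial relative lies close to the peptidyl transferase centre, rose by 0.49 in WT and 0.59 in Btg1-/- cells, and MRPL36 rose by 0.51 and 0.32. MRPL22, a relative of a protein that lines the exit tunnel, rose by 0.35 and 0.37, and MRPL30 by 0.48 and 0.32.

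MRPL38, a mitochondria-specific protein of the central protuberance, measured 10.82 and 10.83 in untreated and 11.71 and 11.56 in starved WT cells, and 10.75 and 10.83 in untreated and 11.51 and 11.30 in starved Btg1-/- cells. Its untreated arrays of both genotypes lay together and its starved arrays stood clear above them. The log2 difference was 0.81 (SE 0.10) in WT and 0.61 (SE 0.10) in Btg1-/- cells, with limma adjusted p = 0.000427 and 0.00401. MRPL37 and MRPL46, 2 further mitochondria-specific proteins of the large subunit, rose by 0.58 and 0.60 in WT cells and by 0.45 and 0.48 without Btg1. Counting by origin, a grouping chosen after the values were seen, 12 of 43 members at places shared with the bacterial ribosome rose and 3 fell in WT cells, and 10 of 25 members at mitochondria-specific places rose and 3 fell. MRPS18A and MRPS18B, relatives of a bacterial protein at mitochondria-specific places, stand in the second count. With them among the first, 14 of 45 rose and 3 fell, and 8 of 23 rose and 3 fell. The WT median log2 differences were close, 0.162 for the 43 and 0.154 for the 25 members. With MRPS18A and MRPS18B moved, these medians were 0.189 and 0.141. Without Btg1, 9 members of either group were called higher, and the medians were 0.188 and 0.238. Of the 43, 2 were called lower there, and of the 25, 1 was. By comparison, 13.1% of all rows were called higher in WT and 8.44% in Btg1-/- cells. The groups were not tested against each other.

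Of the small subunit, MRPS22, a mitochondria-specific protein whose gene is mutated in a human mitochondrial disease, measured 9.51 and 9.55 in untreated and 10.35 and 10.31 in starved WT cells. In Btg1-/- cells it measured 9.12 and 9.44 untreated and 9.84 and 9.86 starved. The starved arrays lay above the untreated arrays in both genotypes. The log2 difference was 0.80 (SE 0.12) in WT and 0.58 (SE 0.12) in Btg1-/- cells, with limma adjusted p = 0.00112 and 0.0115.

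MRPS17, whose bacterial relative binds rRNA early in small-subunit assembly, measured 11.82 and 11.82 in untreated and 12.52 and 12.54 in starved WT cells, and 12.05 and 11.80 in untreated and 12.24 and 12.37 in starved Btg1-/- cells. The WT groups stood far apart for their spread, while replicate 1 of the untreated Btg1-/- cells lay nearer to the starved arrays. The rise of MRPS17 was 0.71 in WT cells (limma adjusted p = 0.000784) and 0.38 in Btg1-/- cells (adjusted p = 0.0294). MRPS2 rose by 0.62 and 0.64 and MRPS9 by 0.63 and 0.49 in WT and Btg1-/- cells, both relatives of bacterial small-subunit proteins. MRPS23, a mitochondria-specific protein, rose by 0.32 in WT (limma adjusted p = 0.0452) and 0.49 in Btg1-/- cells (adjusted p = 0.0122). MRPS5, a further relative of a bacterial protein, rose by 0.58 in WT cells and had a log2 difference of 0.34 (limma adjusted p = 0.214) in Btg1-/- cells.

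Mammals carry 3 relatives of bacterial protein S18, each in a fixed place of the mitochondrial ribosome. MRPS18A measured 10.06 and 9.72 in untreated and 10.75 and 10.51 in starved WT cells, and 9.84 and 9.83 in untreated and 10.27 and 10.27 in starved Btg1-/- cells. MRPS18B measured 9.94 and 10.01, then 10.56 and 10.44 in WT cells, and 9.61 and 9.88, then 10.30 and 10.30 in Btg1-/- cells. MRPS18C measured 10.98 and 11.06, then 11.32 and 11.28 in WT cells, and 10.87 and 10.78, then 11.02 and 11.08 in Btg1-/- cells. For all 3 paralogs and in both genotypes the starved arrays lay above the untreated arrays. The log2 differences in WT and Btg1-/- cells were 0.74 and 0.44 for MRPS18A (limma adjusted p = 0.00251 and 0.0498), 0.53 and 0.56 for MRPS18B (0.00711 and 0.00980) and 0.28 and 0.23 for MRPS18C (0.0397 and 0.112). MRPS18C thus passed the test in WT cells and not in Btg1-/- cells, and the difference of its responses was -0.05 (95% interval -0.33 to 0.22).

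**Figure D1:**
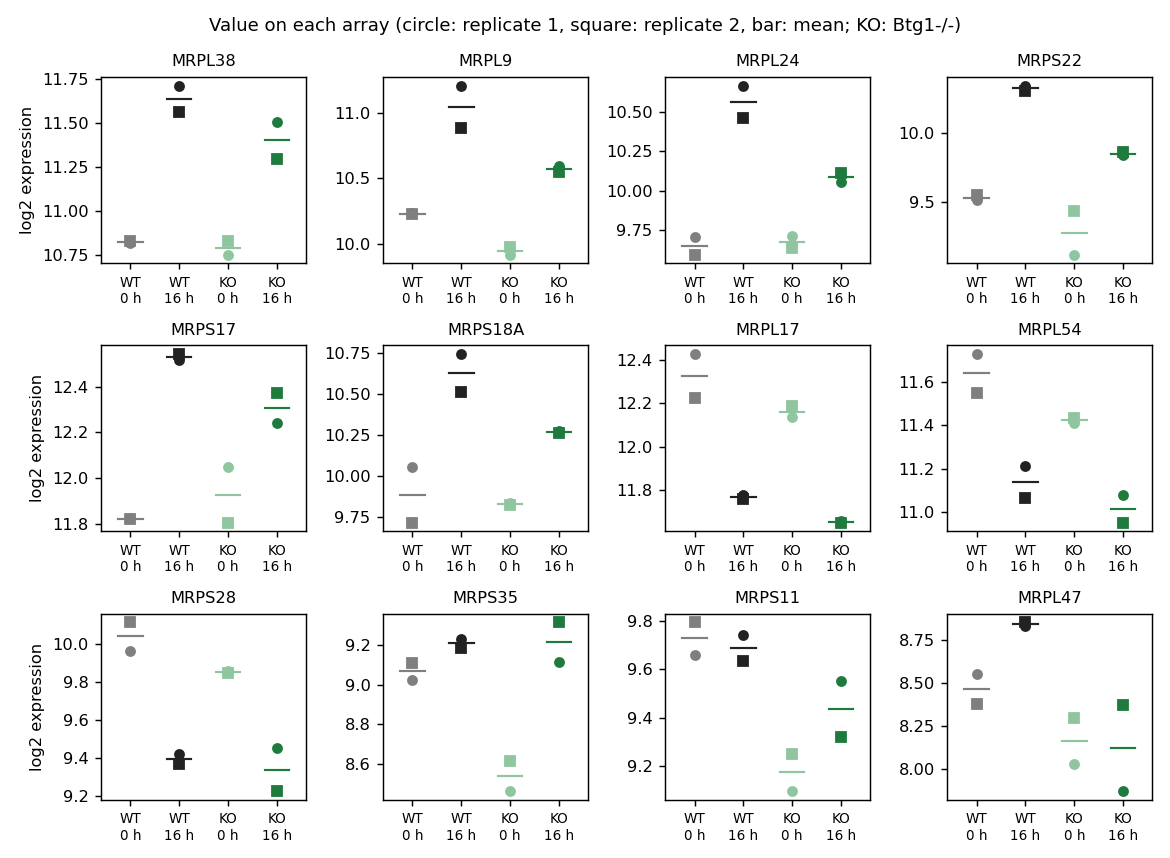
Deposited log2 expression of 12 MRP transcripts on each of the 8 arrays (circle replicate 1, square replicate 2, bar group mean; KO stands for Btg1-/-, and each panel has its own vertical range). MRPL38, MRPL9, MRPL24, MRPS22, MRPS17 and MRPS18A lay higher and MRPL17, MRPL54 and MRPS28 lower in both starved groups, while MRPS35 and MRPS11 lay lowest in untreated Btg1-/- cells and MRPL47 lay higher in starved WT than in starved Btg1-/- cells.

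The members that fell were fewer and mostly of the large subunit. In WT cells 5 of 40 large-subunit members fell (12.5%), near the 11.6% of all rows, and 1 of 28 small-subunit members did (3.57%). MRPL17, a relative of a bacterial protein near the exit tunnel, measured 12.43 and 12.22 in untreated and 11.78 and 11.76 in starved WT cells, and 12.14 and 12.19 in untreated and 11.66 and 11.65 in starved Btg1-/- cells. MRPS28, related to bacterial protein S1, measured 9.97 and 10.12, then 9.42 and 9.37 in WT cells, and 9.86 and 9.85, then 9.45 and 9.23 in Btg1-/- cells. MRPL54, a mitochondria-specific protein, measured 11.73 and 11.55, then 11.21 and 11.06 in WT cells, and 11.41 and 11.43, then 11.08 and 10.95 in Btg1-/- cells. In each of the 3 the starved arrays lay below the untreated arrays of the same genotype. MRPL17 fell by 0.56 (limma adjusted p = 0.00168) and 0.51 (0.00539) in WT and Btg1-/- cells, MRPS28 fell by 0.64 (0.00266) and 0.51 (0.0150), and MRPL54 fell by 0.50 (0.00515) and 0.41 (0.0231). MRPL43, MRPL40 and MRPL18 passed the test in WT cells, where they fell by 0.44, 0.41 and 0.79. MRPL18 measured 7.49 and 7.12 in untreated and 6.49 and 6.52 in starved WT cells, and its difference in Btg1-/- cells was -0.65 (limma adjusted p = 0.124).

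For 40 members the WT difference did not pass the test. MRPL33 lay between 12.30 and 12.58 and MRPS24 between 12.16 and 12.45 over all 8 arrays, both relatives of bacterial proteins, with limma adjusted p of 0.234 and 0.668 in WT cells. MRPL12, of the stalk that recruits translation factors, had a difference of 0.11 (adjusted p = 0.483), and MRPS12, of the decoding centre, one of 0.10 (adjusted p = 0.491). MRPL51 measured 5.87 to 6.00 in untreated and 5.59 to 5.68 in starved WT cells, a difference of -0.29 (95% interval -0.84 to 0.25, adjusted p = 0.444). MRPL33 and MRPS24 had the highest mean of their subunits, and MRPL51 the lowest of the large-subunit members tested. In MRPL33 and MRPL51 both starved WT arrays lay below both untreated arrays, and in MRPL12 and MRPS12 above them, while MRPS24 overlapped.

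The number of WT calls depended on the 2 arrays of each group and on the estimate of the spread. Without WT untreated replicate 1 or 2, or WT starved replicate 1 or 2, 15, 16, 16 and 18 members were called (16.2%, 16.7%, 14.3% and 16.5% of all rows), and without both arrays of WT replicate 2, 7 of 69 (8.79%). When the spread was taken as the same at all expression levels, 11 members were called, against 18.4% of all rows.

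Starvation of Btg1-/- cells was compared in the same fit. Of 68 members, 18 rose and 3 fell at a limma adjusted p under 0.05. Among all tested rows 8.44% rose and 7.24% fell (15.7% in all). With the level for testing raised to 5, 24 of 67 members were called (20 rose and 4 fell), against 27.9% of all rows. Both starved arrays lay above both untreated arrays for 38 members and below them for 10, where 29.6% of all rows were higher and 25.5% lower. The median log2 difference of the members was 0.20, against 0.03 for all rows, and 49 of 68 lay above 0. A 3-fold change was reached by 0 members and 2.16% of all rows. By members, 17 rose in both genotypes (25% of 68, where 7.32% of all rows did), 3 fell in both (MRPL17, MRPL54 and MRPS28; 4.41% against 6.45%), and 39 passed in neither (57.4% against 73.4%). A further 5 (MRPL27, MRPL50, MRPS5, MRPS18C and MRPS33) rose and 3 (MRPL18, MRPL40 and MRPL43) fell in WT cells without passing in Btg1-/- cells, 1 (MRPS35) rose in Btg1-/- cells without passing in WT cells, and 0 moved in opposite directions. For all 9 the difference between the genotypes' responses did not pass the test. The WT and Btg1-/- responses share no array, but their tests share the same estimate of each row's spread and are not independent. The largest rise was that of MRPS35, a mitochondria-specific small-subunit protein, with a log2 difference of 0.67 (limma adjusted p = 0.00551).

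The number of Btg1-/- calls moved with single arrays as well. Without Btg1-/- untreated replicate 1, starved replicate 1 or starved replicate 2, 7, 7 and 10 members were called (10.4%, 7.78% and 8.45% of all rows), and without both arrays of replicate 1, which carry the highest macrophage markers, 3 of 69 (5.71%), with a median of 0.13. Only the arrays of Btg1-/- cells in the fit gave 7 calls (9.53% of all rows), no intensity trend gave 1 (7.42%), and without both arrays of WT replicate 2, which add to the estimate of the spread, 8 of 69 were called (9.22%).

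Averaging the responses of both genotypes, which uses all 8 arrays, 27 of 68 members rose and 9 fell, where 17.5% of all rows rose and 15% fell, and 32.6% passed in all. With the level for testing raised to 5, 37 of 67 members passed, against 51.7% of all rows. In the main fit the median of the 68 members was 0.18. Members that passed here and in neither genotype alone included MRPL3 and MRPL4, which rose by 0.26 and 0.37, both relatives of bacterial proteins, and MRPS16, which fell by 0.25 (limma adjusted p = 0.0416, 0.0126 and 0.0294). MRPS31 rose by 0.27 and MRPS6 by 0.49, while MRPL48 and MRPL52 fell by 0.30 and 0.27.

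**Figure D2:**
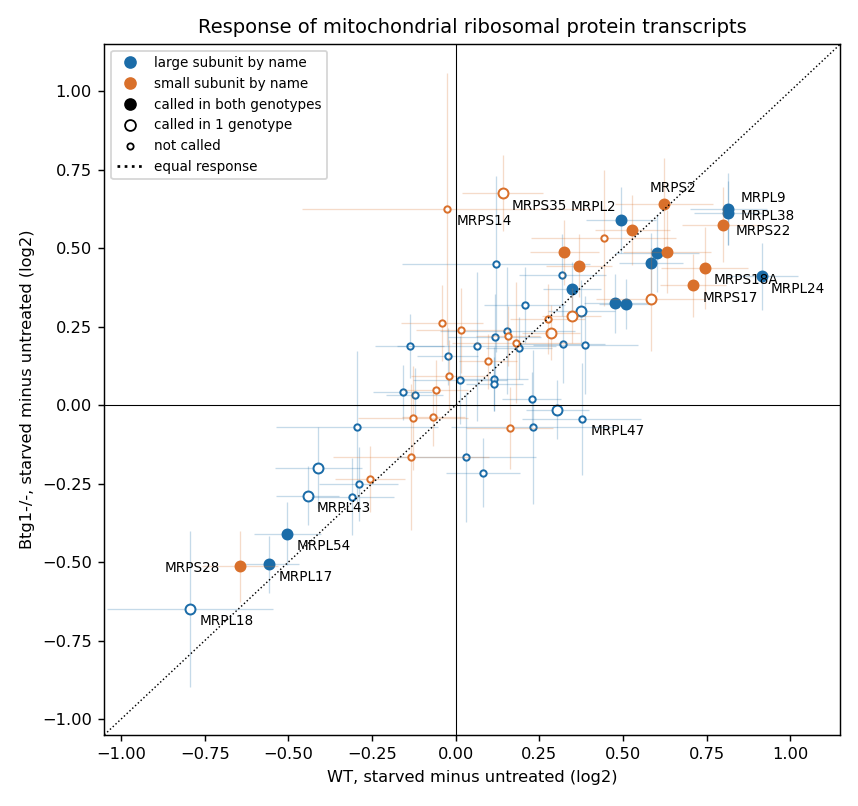
Log2 difference after 16 hours without glutamine in WT (horizontal) and Btg1-/- cells (vertical) for the 68 MRP transcripts tested, with standard errors as thin lines. Filled points passed an adjusted p of 0.05 in both genotypes (17 higher, 3 lower), large open points in 1 genotype, and no member passed in opposite directions.

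In the comparison of the subunits, 11 of 40 large-subunit members rose and 5 fell in WT cells (27.5% and 12.5%). Of 28 small-subunit members, 11 rose and 1 fell (39.3% and 3.57%). Among all rows 13.1% rose and 11.6% fell. The median log2 differences of the large and small subunit were 0.14 and 0.17. In Btg1-/- cells 9 large-subunit members rose and 2 fell (22.5% and 5%), with a median of 0.17. There 9 small-subunit members rose and 1 fell (32.1% and 3.57%), with a median of 0.27. Among all rows 8.44% rose and 7.24% fell in Btg1-/- cells. With MRPS30 and MRPS18A counted in the large subunit, where the structures place them, 13 of 42 rose and 5 fell in WT cells (median 0.17) against 9 of 26 and 1 (median 0.16), and 11 and 2 in Btg1-/- cells (median 0.18) against 7 and 1 (median 0.25). The order of the medians in WT cells thus turned with the assignment of 2 rows. MRPS30 itself rose by 0.37 and 0.44 in the respective genotypes. Members are not replicates, and the subunits were not tested against each other.

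By array, the median deviation of the small-subunit members from each row's mean over the 8 arrays was -0.01 and 0.03 in untreated and 0.23 and 0.18 in starved WT cells, and -0.22 and -0.20 in untreated and 0.09 and 0.00 in starved Btg1-/- cells. That of the large-subunit members was 0.04 and 0.00, then 0.18 and 0.17 in WT cells, and -0.19 and -0.10, then 0.03 and -0.02 in Btg1-/- cells. Both subunits thus lay lowest on the untreated Btg1-/- arrays and highest on the starved WT arrays, with no overlap between these groups. All rows tested deviated by -0.04 to 0.02.

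**Figure D3:**
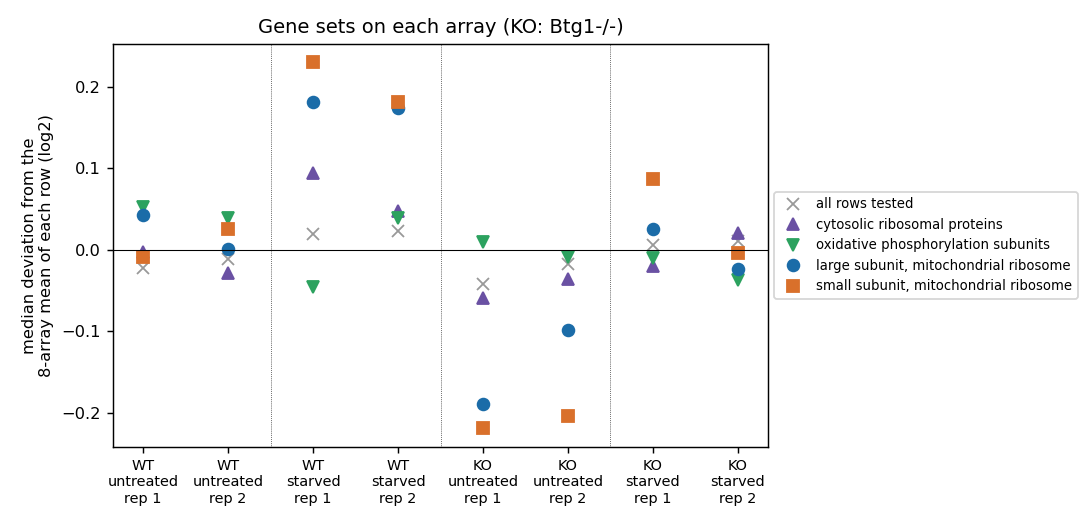
Median deviation from each row's mean over the 8 arrays, on the log2 scale, for the large and the small subunit of the mitochondrial ribosome, cytosolic ribosomal proteins, oxidative phosphorylation subunits and all rows tested, by array. Small-subunit members ran from -0.22 on untreated Btg1-/- replicate 1 to 0.23 on starved WT replicate 1, and all rows stayed between -0.04 and 0.02.

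Other genes of ribosomes and mitochondria were counted in the same fit, where as above 13.1% of all rows rose in WT and 8.44% in Btg1-/- cells. Of 60 cytosolic ribosomal proteins, 8 rose and 0 fell in WT cells (median log2 difference 0.07) and 1 rose and 0 fell in Btg1-/- cells (median 0.05). Of 71 nuclear-encoded oxidative phosphorylation subunits, which assemble with the products of the mitochondrial ribosome, 11 rose and 8 fell in WT cells (median -0.03) and 5 rose and 1 fell in Btg1-/- cells (median -0.02). The members had a larger share that rose than either set, 32.4% in WT cells, and this difference between sets was not tested.

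Of 21 factors that build the mitochondrial ribosome and modify its rRNA, 8 rose and 0 fell in WT cells (median 0.61) and 6 rose and 0 fell in Btg1-/- cells (median 0.31). Rnmtl1, an rRNA methyltransferase, rose by 1.24 in WT and 0.78 in Btg1-/- cells (limma adjusted p = 0.000761 and 0.0146). Ddx28, an RNA helicase of large-subunit assembly, rose by 1.11 and 0.67, and Mterfd2, which brings the methyltransferase Nsun4 to the large subunit, rose by 0.89 and 0.94. Mtg1, a GTPase of large-subunit assembly, rose by 0.90 in WT cells and had a difference of 0.30 (adjusted p = 0.428) in Btg1-/- cells. The proteases that mature MRPL32 did not pass the test in either genotype, with WT differences of 0.21 for Afg3l2 and -0.09 for Spg7.

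Factors that transcribe mitochondrial DNA were listed with regulators of nuclear genes. Of these 11, 5 rose and 0 fell in WT cells and 4 rose and 0 fell in Btg1-/- cells. All that rose were factors of mitochondrial DNA transcription. Of the nuclear regulators, Nrf1 differed by -0.27 and -0.12 and Gabpb1 by -0.38 and -0.19 in WT and Btg1-/- cells (limma adjusted p = 0.189 or higher). The other 9 rows of the list lay above 0 in each genotype. Tefm, the elongation factor, rose by 0.97 and 0.78 in WT and Btg1-/- cells, Mterf1a, which binds within mitochondrial DNA to end transcripts, by 0.76 and 0.75, Tfb2m, which opens the promoter, by 0.74 and 0.57, and Polrmt, the RNA polymerase, by 0.62 and 0.47. Of 13 translation factors and mRNA-binding proteins, 2 rose and 0 fell in each genotype (15.4%, near the share of all rows in WT cells), the initiation factor Mtif3 by 0.92 and 0.82 and Lrpprc, which stabilises mitochondrial mRNAs, by 0.74 and 0.69 (limma adjusted p = 0.00902 or lower). Of 11 mitochondrial chaperones and proteases, 3 rose in WT and 1 in Btg1-/- cells, with 0 lower in both. That 1 was Hspa9, the import motor mortalin, which rose by 0.86 and 0.74. Of 7 ribosomal subunits listed under other names, 1 rose in WT cells, Chchd1 by 0.28 (limma adjusted p = 0.0440), and 0 passed in Btg1-/- cells, among them Dap3, the GTP-binding small-subunit protein, at 0.26 and 0.29 (adjusted p = 0.0628 and 0.0568). The row under an older name of Mrpl42 fell by 0.38 in WT cells (limma adjusted p = 0.0159).

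**Figure D4:**
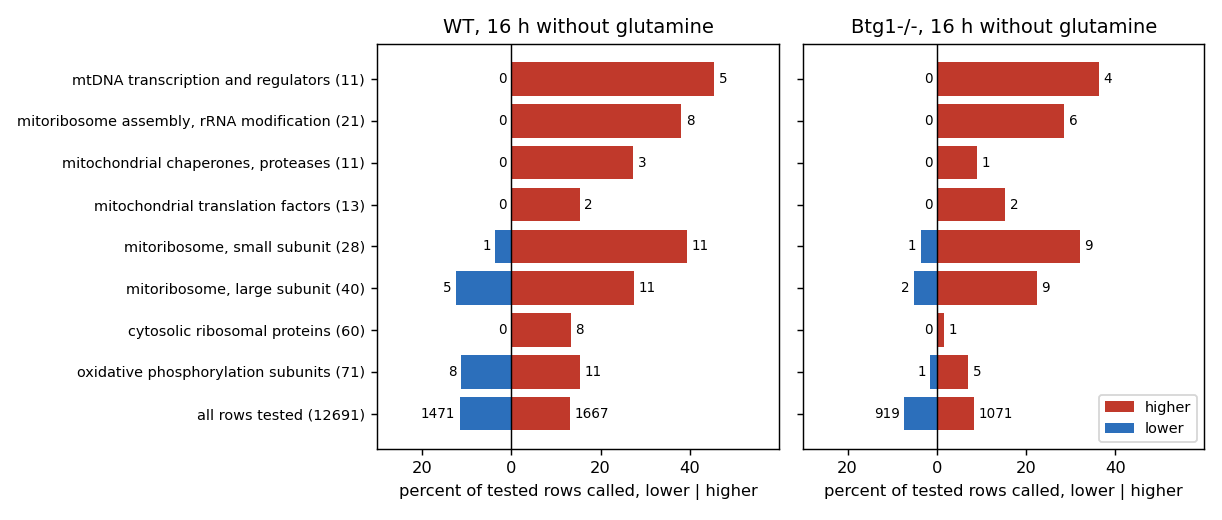
Percent of tested rows called higher (right) or lower (left) at an adjusted p under 0.05 after 16 hours without glutamine in WT (left panel) and Btg1-/- cells (right panel), with the counts at the bars and the rows tested in parentheses. In WT cells 11 of 28 small-subunit and 11 of 40 large-subunit members were higher, beside 8 of 60 cytosolic ribosomal proteins and 8 of 21 assembly factors.

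Fibroblast markers moved with starvation too, with 7 of 9 lower in WT cells (median -1.25) and 3 of 9 lower in Btg1-/- cells (median -0.62), and 0 higher in either. These are bulk cultures, in which fewer cells of a type and less RNA per cell cannot be told apart. The part of these shifts in the MRP values was not tested.

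Btg1-/- cells were compared with WT cells next, in each state. In untreated cells 0 of 68 members passed an adjusted p of 0.05 in limma, against 0.662% of all rows. There 14 members and 2193 of all rows stood at an unadjusted p under 0.05 in limma. A t-test per row, with 2 arrays a group, called 0 members and 0% of all rows, so its 0 does not bear on the members. Yet 60 of 68 members lay below WT, 33 of 40 of the large and 27 of 28 of the small subunit, with a median log2 difference of -0.19 where that of all rows was -0.02. Among all rows 6618 of 12691 lay below WT. Both Btg1-/- arrays lay below both WT arrays for 46 members and above them for 2, where 25.3% of all rows were lower and 22.6% higher. The medians of the cytosolic ribosomal proteins and the oxidative phosphorylation subunits were -0.05 and -0.06. The other lists of mitochondrial genes lay below WT as well. The median was -0.26 for translation factors (12 of 13 below WT) and -0.19 for transcription factors and regulators (9 of 11). It was -0.13 for chaperones and proteases (10 of 11) and -0.10 for assembly factors (15 of 21).

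The 3 members with the lowest p in untreated cells were of the small subunit. Of the 14 members at an unadjusted p under 0.05 in limma, 9 were of the large and 5 of the small subunit. MRPS11, whose bacterial relative sits on the platform of the subunit, measured 9.66 and 9.80 in WT and 9.10 and 9.25 in Btg1-/- cells, a difference of -0.56 (SE 0.12, limma adjusted p = 0.0761). MRPS35 measured 9.02 and 9.11 in WT and 8.46 and 8.61 in Btg1-/- cells, a difference of -0.53 (adjusted p = 0.0814). MRPS7, whose bacterial relative starts assembly of the subunit's head, measured 10.33 and 10.28 in WT and 9.88 and 10.02 in Btg1-/- cells, a difference of -0.35 (adjusted p = 0.107). In all 3 the Btg1-/- arrays lay below both WT arrays, and the differences did not pass the test. With the replicate number as a block across all arrays, MRPS11 and MRPS35 passed (limma adjusted p = 0.0445 and 0.0419). That fit called 2 of 68 members, against 3.34% of all rows. The 2 members with arrays wholly above WT, MRPL36 and MRPL39, were of the large subunit, and the highest difference of any member was 0.19.

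After 16 hours without glutamine, 0 of 68 members passed in limma, against 2.25% of all rows. At an unadjusted p under 0.05 in limma stood 22 members and 2137 of all rows. A t-test per row called 0 members and 0.00788% of all rows, and its 0 again does not bear on the members. Here 59 of 68 members lay below WT, with a median of -0.21 against -0.03 for all rows, -0.24 for the large and -0.20 for the small subunit. The medians of the cytosolic ribosomal proteins and the oxidative phosphorylation subunits were -0.07 and -0.04 in this state. That of the translation factors was -0.205 (11 of 13 below WT). Both Btg1-/- arrays lay below both WT arrays for 44 members and above them for 4 (MRPL14, MRPL39, MRPL43 and MRPL53), where 27.3% of all rows were lower and 22.1% higher. In both states 53 members (77.9%) and 35% of all rows lay below WT. The 2 states share no array, but the labels do not say whether their cultures came from the same embryos. EIF2S3Y in WT and macrophage markers in Btg1-/- cells followed the replicate number in both states, so the 2 states may not be independent. EIF2S3Y was high in WT replicate 2 alone, and the part of this imbalance in the genotype differences was not tested. Without both arrays of WT replicate 2 the member medians were -0.234 untreated and -0.215 starved.

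MRPL24, the member of largest rise in WT cells, measured 10.67 and 10.46 in starved WT and 10.06 and 10.11 in starved Btg1-/- cells, a difference of -0.48 (SE 0.11, limma adjusted p = 0.0540). MRPL9 differed by -0.48 (adjusted p = 0.0690). MRPL47, a relative of a bacterial protein at the exit tunnel, measured 8.83 and 8.86 in starved WT and 7.87 and 8.37 in starved Btg1-/- cells, a difference of -0.72 (SE 0.18, adjusted p = 0.0749). The WT arrays lay above the Btg1-/- arrays in each of these, and none passed the test. With the replicate number as a block across all arrays, MRPL24, MRPL9 and MRPL47 passed (limma adjusted p = 0.0303, 0.0418 and 0.0397). That fit called 4 of 68 members, against 4.51% of all rows. A random block for the number within a genotype was added after seeing the data. There MRPL24 passed (limma adjusted p = 0.0492), and MRPL9 and MRPL47 did not. The random block called 1 of 68 members, against 2.47% of all rows. Rnmtl1 of the assembly list was lower in starved Btg1-/- cells by a difference of -0.81 (limma adjusted p = 0.0488).

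Macrophage markers moved with genotype, with 9 of 10 above WT in each state (median 2.00 untreated and 1.56 starved) and 0 called, among them Tyrobp at 4.79 in untreated WT and 7.27 in untreated Btg1-/- cells and Csf1r at 3.76 and 5.84, while Ptprc lay under 3 in every group. Fibroblast markers moved with genotype in starved cells, where 3 of 9 were higher than in WT (33.3%, against 2.25% of all rows called in either direction) and 8 of 9 lay above 0, with a median of 0.73. The 3 were Col1a1, Col3a1 and Pdgfrb, with log2 differences of 0.89, 1.22 and 1.05 (limma adjusted p = 0.0209, 0.0490 and 0.0255). In untreated cells 0 of 9 passed and the median was 0.12. The part of either marker list in the MRP values was not tested. Macrophage markers were highest in Btg1-/- replicate 1. Without both of its arrays, 57 of 69 members lay below WT in untreated cells, with a median of -0.15. In starved cells 57 of 69 did, with a median of -0.23. The arrays of replicate 2 that remain still had higher macrophage medians, 6.36 and 6.09, against 5.01 to 5.70 on WT arrays.

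**Figure D5:**
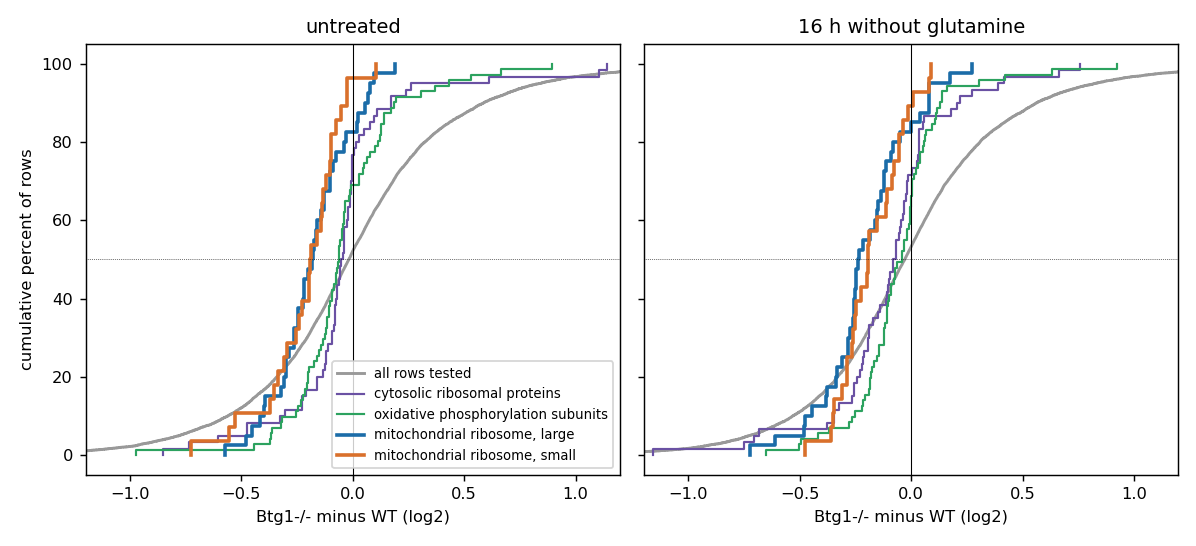
Cumulative percent of rows by log2 difference of Btg1-/- minus WT in untreated cells (left) and after 16 hours without glutamine (right), for the large and small subunit of the mitochondrial ribosome, cytosolic ribosomal proteins, oxidative phosphorylation subunits and all rows tested (differences beyond 1.2 on either side are not drawn). The member curves cross 50 percent near -0.2 in both panels, to the left of the other curves drawn. The lists of mitochondrial translation, transcription, assembly and chaperone genes are not drawn.

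Whether loss of Btg1 altered the response to starvation was tested as the difference of the responses, Btg1-/- minus WT. In limma 0 of 68 members and 0% of all rows passed. At an unadjusted p under 0.05 in limma stood 4 of 68 members (MRPL24, MRPL27, MRPS17 and MRPS35) and 815 of 12691 rows, a similar share. The intervals below are not adjusted for the number of rows. MRPL24, MRPS35 and MRPL27 are given for their low unadjusted p, so that an interval without 0 is no sign of an altered response. Over the members, 39 differences lay above 0 and 29 below, with a median of 0.02. For MRPL24 the difference was -0.51 (95% interval -0.84 to -0.17, limma adjusted p = 0.709). For MRPS35, which measured 9.23 and 9.18 in starved WT and 9.11 and 9.31 in starved Btg1-/- cells, it was 0.53 (95% interval 0.15 to 0.92, limma adjusted p = 0.709). The starved arrays of MRPS35 lay together in both genotypes, while its untreated arrays lay apart. For MRPL27, whose bacterial relative reaches into the peptidyl transferase centre, the difference was -0.32 (95% interval -0.62 to -0.02, adjusted p = 0.766). For MRPL38 and MRPL17 the intervals were -0.53 to 0.12 and -0.24 to 0.34, which leaves room for differences of the size of many responses above.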

How the data were processed

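Gene expression was measured in 8 cultures of MEFs on Illumina MouseRef-8 v2 bead arrays. The authors normalised the data by RMA in ArrayStar, with GenomeStudio 2011.1 listed in the submitters' notes on processing. In the deposited table, log2 values give 1 value per named row and array, and a second table holds the authors' means of log2 values and fold ratios, which were not used for tests. The members' group means in the 2 tables differed by at most 5e-06. Single probes, bead counts and detection p-values were not used here, and the number of arrays limits the precision.

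Rows whose mean reached 3 in any group (12691 of 18132) were fitted by limma 3.58.1 in R 4.3.3 to the 4 group means of all 8 arrays, with eBayes and a trend of the spread with intensity (residual degrees of freedom 4, prior 5.48). P-values are two-sided with Benjamini-Hochberg adjustment over all 12691 rows, and a row was called at an adjusted p under 0.05. The mean of both genotypes' responses was fitted as a further comparison. The fit was tested on simulated data.

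Members were chosen by row name. The members, gene lists and rules were chosen with earlier results of these data known. Named members are those called, up to 15 per comparison and direction, those of lowest p where 0 were called, those below 3 and the MRPS18 paralogs, and other names were added after their values were seen. Alternatives were fixed and random blocks for the replicate number, and other filters, scalings, thresholds, spreads, arrays and members. The labels give no hybridisation batch. Mrpl41, Mrpl44 and Mrps36 were not analysed here.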

Additional observations from a re-analysis of the deposited data

Results flagged for a closer look

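MRPL20, whose E. coli relative is needed early in large-subunit assembly, moved to opposite sides of the untreated arrays in the 2 genotypes. It measured 11.51 and 11.40 in untreated and 11.24 and 11.40 in starved WT cells, and 11.10 and 11.32 in untreated and 11.40 and 11.40 in starved Btg1-/- cells. WT replicate 2 measured 11.402 untreated and 11.396 starved, which is nearly the same value. Each starved WT array lay below both untreated WT arrays, and each starved Btg1-/- array above both untreated Btg1-/- arrays. The difference in response was 0.325 on the log2 scale (95% interval -0.0032 to 0.65) and did not pass the test in limma (adjusted p = 0.766).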

How the results depend on the processing

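Among calls of single members under the alternatives, 1645 values kept their direction and side of the threshold, 408 kept their direction and no longer passed, and 0 changed sign. Only members called in the main fit were followed, and a member counts again for each comparison and alternative. Many alternatives change only the spread or the threshold, so that the sign could not change there. The t-test per row called 0.00788% of all rows in each starvation comparison, so that its 0 calls do not bear on the members. At an adjusted p under 0.01, 14.8% of all rows passed in WT and 6.79% in Btg1-/- cells. The count of WT starvation calls (28) was 11 without the intensity trend, 17 at an adjusted p under 0.01, 0 by a t-test per row and 0 by the 3-fold rule, 7 without both arrays of WT replicate 2 and 15 to 27 with 1 array left out. The count of Btg1-/- starvation calls (21) was 1, 6, 0, 0 and 8 in the same order, 7 with the arrays of the comparison alone, 3 without both arrays of Btg1-/- replicate 1 and 7 to 20 with 1 array left out. For the mean response (36 calls) the 3-fold rule gave 0, leaving out WT replicate 2 gave 23, and 1 array left out gave 28 to 32. Btg1-/- against WT gave 2 calls untreated and 4 starved at an adjusted p under 0.1, where 3.13% and 4.6% of all rows passed. In starved cells 1 of 67 members was called with a mean of 3 in every group, against 3.09% of all rows. With a mean of 5 in at least 1 group it was 1 of 67, against 5.05%.

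The WT median (0.159) was 0.132 with arrays centred, 0.181 with subunits of other names, 0.172 with Mrpl42 added, 0.198 without WT replicate 2 and 0.131 to 0.200 with 1 array left out. The Btg1-/- median (0.197) was 0.129 without replicate 1 and 0.150 to 0.237 with 1 array left out, and the median difference in response (0.0247) was -0.0452 without Btg1-/- replicate 1 and -0.0354 to 0.0424 with 1 array left out. The cause was not tested.

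The replicate number as a block was fitted within genotype for starvation and across all arrays between genotypes. It gave 30 WT and 23 Btg1-/- starvation calls, 2 genotype calls untreated (MRPS11 and MRPS35) and 4 starved (MRPL9, MRPL24, MRPL47 and MRPS22). The share of all rows called rose as well, to 28.6%, 19.6%, 3.34% and 4.51%, from 24.7%, 15.7%, 0.662% and 2.25% in the main fit. A random block for the number within genotype, added after seeing the data, gave 28, 25, 0 and 1 (consensus correlation 0.157). Of all rows 27.9%, 19.2%, 0.812% and 2.47% passed there. The labels do not say that a number marks a shared embryo. Deviations of same-numbered replicates correlated at 0.118 between untreated and starved WT cells, 0.243 for Btg1-/- cells and 0.0236 to 0.105 between genotypes, and EIF2S3Y in WT and macrophage markers in Btg1-/- cells followed the number in both states. If the number marks a shared source, the 8 arrays hold 4 independent ones. The 2 arrays a group limit the precision: standard errors of the called WT differences ran from 0.08 for MRPL36 to 0.25 for MRPL18.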
